A study of Mus musculus with 2 samples.

Results

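The 10 genes described here encode the core of the TGF-beta signalling pathway and its inhibitors: the receptors Tgfbr1, Tgfbr2 and Tgfbr3, the signal carriers Smad2, Smad3 and Smad4, and the inhibitors Smad7, Ski, Skil and Tgif1. They were taken by symbol from the scanner data, control spots left out, and every probe of each gene was used. That gave 17 probes for 10 of 30119 gene names on the array. The study measured RNA from regulatory T (Treg) cells of mice 5 weeks old. The wild-type group was 1 library, and the other group was 1 library labelled Nr4a-deficient. Per the protocols its mice were Nr4a-TKO. Total RNA came from the sorted cells lysed without culture, was amplified, labelled with Cy3 and hybridised to 1 single-colour Agilent array per group. With 1 array in each group the differences had no replicate check, and no p-value is given. The sort markers, tissue, strain, number of mice, deleted exons and any Cre driver are not given in the sources used here.

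TGF-beta is a secreted cytokine that limits immune responses. It binds the type II receptor Tgfbr2, which phosphorylates and switches on the type I receptor kinase Tgfbr1. Tgfbr1 then phosphorylates Smad2 and Smad3, which join Smad4 and enter the nucleus to regulate genes. Smad7 blocks the activated receptor and is itself induced by the signal, while Ski, Skil (SnoN) and Tgif1 are nuclear co-repressors that hold Smad complexes back. In T cells this pathway supports the induction of Foxp3 and the upkeep of Treg cells, and it induces the integrin gene Itgae.

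Each array carried 39429 gene probes, of which 39348 were left on both arrays once outlier spots were removed. Of these, 23113 (58.7%) were well above background in the library labelled Nr4a-deficient. In the wild-type library 21872 (55.6%) were. No spot was saturated. Each array was scaled to the 75th percentile of its gene probes, an intensity of 2042 in the wild-type library and of 1757 in the library labelled Nr4a-deficient. Equal scaled levels therefore correspond to a lower intensity on the latter array. All differences are log2 values with the wild-type level subtracted, so a negative value means lower in the library labelled Nr4a-deficient. A ± value after an intensity or a difference is the error that the scanner software estimated for that spot or pair of spots, so it covers 1 array and not the spread between mice. Where 2 intensities are given, that of the library labelled Nr4a-deficient comes first. The label was checked first on the Nr4a genes. Nr4a1 read 80407 in the library labelled Nr4a-deficient against 51441 in the wild-type library, and the probes of Nr4a2 read 3134 and 1850, and 484 and 351. These probes went against the label, and whether they lie in a deleted part is not known, so a direction here is that of the library labelled Nr4a-deficient. Nr4a3 read 22.3 and 71.6, not well above background on either array. The 8 spike-in RNAs, added controls of known identity, were 0.37 ± 0.058 (SD, n = 8) log2 units higher after scaling in the library labelled Nr4a-deficient. A spike-in scale therefore lowers every difference by 0.37, and values on that scale are given beside many of those whose direction or call it changes.

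The 4 inhibitor genes were all lower in the library labelled Nr4a-deficient. Skil differed by -1.03 (2.04-fold lower), Tgif1 by -0.78 (1.71-fold lower), Smad7 by -0.49 (1.41-fold lower) and Ski by -0.34 (1.27-fold lower). The 3 receptors lay between -0.19 and 0.41 and the 3 signal-carrying Smads between -0.08 and 0.42. The median was -0.63 over the inhibitors and 0.06 over the other 6 genes, next to -0.01 over the 16298 genes that both arrays measured above background. In a bulk sample, fewer cells of a type and less RNA per cell cannot be told apart, which holds for each difference here.

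Read against all genes, few members stood far out. Past 2-fold, 1 of the 10 was lower (Skil) and 0 were higher, where 4.92% of the 18540 genes detected on at least 1 array were lower and 4.70% higher. With 4 of 10 other ways of processing that count of lower members was 0. Past 1.5-fold, 2 of the 10 were lower (Skil and Tgif1) and 0 higher, against 8.67% and 8.75% of those genes. On the spike-in scale the 2 genes Skil and Tgif1 passed 2-fold lower and 0 passed higher, against 8.13% and 3.02%. A difference larger than its own software error was seen for 6 of 10 members, Tgfbr3, Smad3, Smad7, Ski, Skil and Tgif1, and for 42.1% of the genes above background on both arrays. The 5th percentile of these genes was -0.70 and the 95th was 0.66. Skil and Tgif1 lay below that range, with 2.90% and 4.36% of genes lower than they were. Smad7 had 7.88% of genes below it and Ski 12.4%. At the upper end, Smad3 and Tgfbr3 had 90.6% and 90.4% of genes below them.

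**Figure D1:**
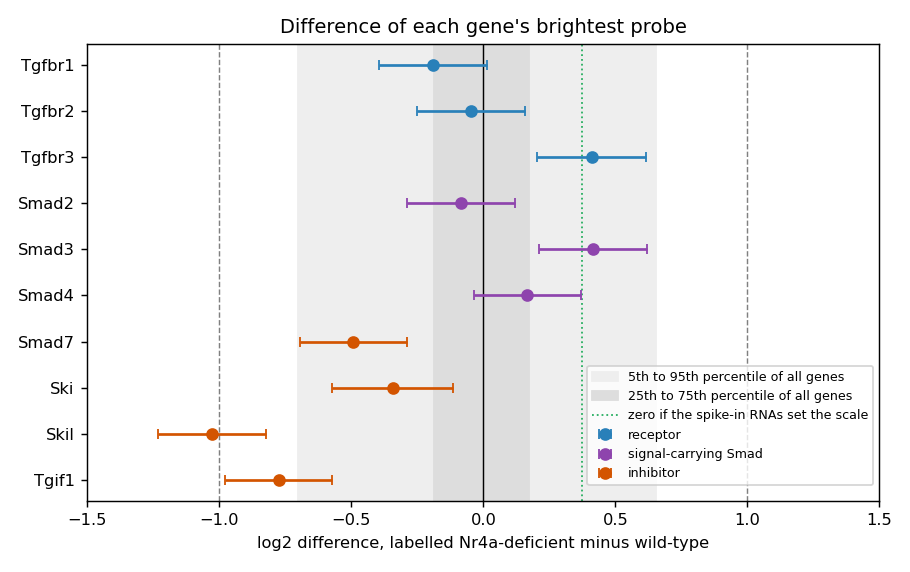
Log2 difference (negative where lower in the library labelled Nr4a-deficient) of each of the 10 genes at its brightest probe, with the software error as bars, against the range of all genes above background on both arrays. The 4 inhibitors lay from -1.03 to -0.34 and the other 6 genes from -0.19 to 0.42. On the spike-in scale each value is 0.37 lower, which turns Smad4 below 0.

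The receptors showed small differences. Tgfbr2, the receptor that binds the ligand, read 14694 ± 1469 in the library labelled Nr4a-deficient against 17638 ± 1764 in the wild-type library at its bright probe (mm9 chr9:115997155-115997214, minus strand). After scaling the difference was -0.05 ± 0.20, smaller than its error. A dimmer Tgfbr2 probe read 802 ± 81.0 and 713 ± 73.0, a difference of 0.39 ± 0.21. The 2 probes of Tgfbr2 therefore disagreed, and the dimmer probe differed by 0.02 on the spike-in scale. It is shown because it reaches the end of the protein-coding sequence: its last bases, in capitals, are the TAG stop codon. It covers mm9 chr9:115999496-115999555 on the minus strand, and is printed 5' to 3'.
Tgfbr2 probe A_55_P2107288: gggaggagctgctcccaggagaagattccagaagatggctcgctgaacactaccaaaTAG

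Tgfbr1, the kinase that phosphorylates the Smads, had 4 probes. Its brightest (mm9 chr4:47427736-47427795, plus strand) read 6361 ± 636 in the library labelled Nr4a-deficient against 8435 ± 844 in the wild-type library, a difference of -0.19 ± 0.20. The probe nearer the start of the same transcript read 293 ± 31.5 and 416 ± 44.7, a difference of -0.29 ± 0.22. The other two probes were designed on separate Ensembl transcripts of the gene. One of them read 257 ± 28.9 and 277 ± 33.3, a difference of 0.11 ± 0.24 (-0.26 on the spike-in scale), and the other read 81.1 ± 14.5 and 75.3 ± 18.1. That last probe was not well above background in the wild-type library. Its difference was 0.32 ± 0.43, within its error, and -0.049 on the spike-in scale, so no direction is given for it. Scaled to the 75th percentile, no Tgfbr1 probe reached 1.5-fold in either direction. By the spike-in scale the probe nearer the start differed by -0.66, past 1.5-fold lower.

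Tgfbr3 (betaglycan), the co-receptor that presents the ligand to Tgfbr2, had 1 probe (mm9 chr5:107535818-107535877, minus strand). It read 1403 ± 141 in the library labelled Nr4a-deficient against 1227 ± 124 in the wild-type library, a difference of 0.41 ± 0.21 (1.33-fold higher). On the spike-in scale that difference was 0.04. A gap between the differences of separate genes is free of the scale factor. The difference of Tgfbr3 was 0.46 ± 0.29 above that of Tgfbr2 and 0.60 ± 0.29 above that of Tgfbr1.

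Of the signal carriers, Smad3 was the highest and Smad2 the lowest. Smad3 read 13357 ± 1336 in the library labelled Nr4a-deficient against 11638 ± 1164 in the wild-type library at its bright probe (mm9 chr9:63494574-63494633, minus strand), a difference of 0.42 ± 0.20 (1.33-fold higher). Its second probe was dim, 118 ± 16.6 and 95.3 ± 19.3, and differed by 0.52 ± 0.36. Both Smad3 probes were higher, and on the spike-in scale they differed by 0.04 and 0.15. Smad2, which shares its receptor with Smad3, read 1435 ± 144 and 1769 ± 178 at its 1 probe (mm9 chr18:76464903-76464962, plus strand), a difference of -0.08 ± 0.20. The difference of Smad3 was 0.50 ± 0.29 above that of Smad2. Smad4, the partner that both require, had 2 bright probes. They read 11271 ± 1127 and 11671 ± 1167 (mm9 chr18:73798670-73798729, minus strand), and 7053 ± 705 and 6169 ± 617 (mm9 chr18:73799668-73799727). The Smad4 differences were 0.17 ± 0.20 and 0.41 ± 0.20, above 0 at both probes after 75th percentile scaling, but -0.21 and 0.04 on the spike-in scale.

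**Figure D2:**
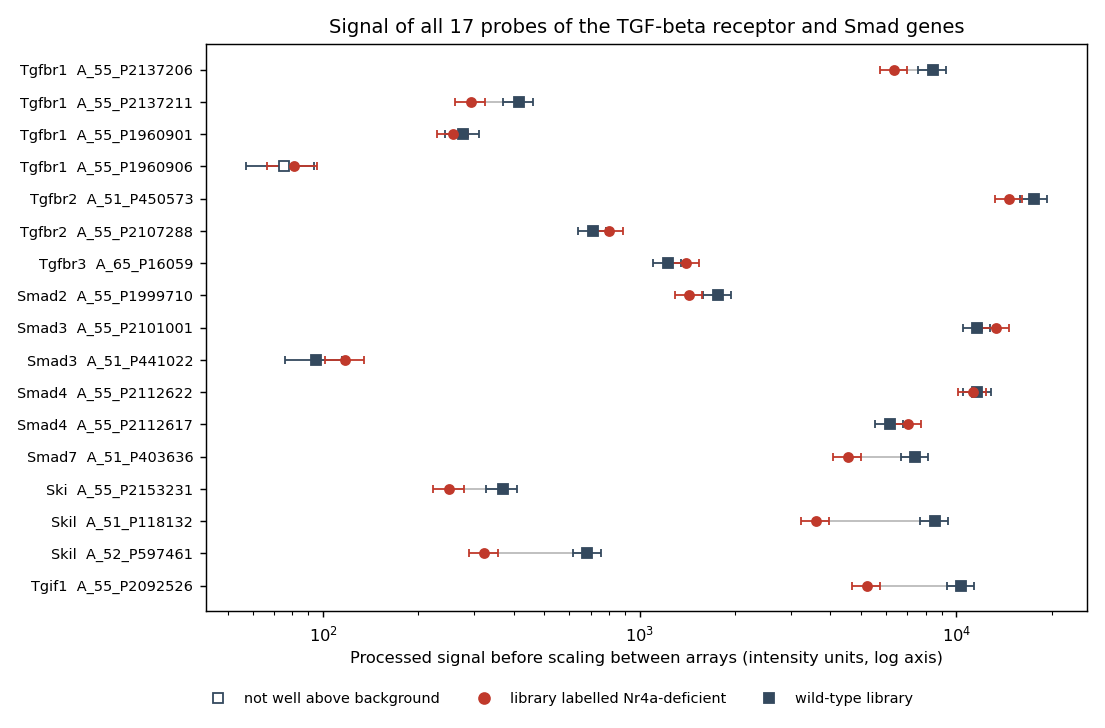
Processed signal of all 17 probes in both libraries (log axis, before scaling between arrays), with the software error as bars and an open symbol where a probe was not well above background. Every probe of Skil, Tgif1, Smad7 and Ski was dimmer in the library labelled Nr4a-deficient, while the probe pairs of Tgfbr2 and Smad4 cross over.

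Skil was the member that differed most. Skil (SnoN) is a co-repressor that binds Smad2, Smad3 and Smad4, and TGF-beta is known both to trigger its breakdown and to induce its gene. Its bright probe (mm9 chr3:31021203-31021262, plus strand) was printed in 10 spots on each array. In the library labelled Nr4a-deficient those spots read from 3336 to 3832 with a median of 3634, and in the wild-type library from 7756 to 9298 with a median of 8558. The mean of the spots was 3607 ± 170 (SD, n = 10 spots) against 8555 ± 455 (SD, n = 10 spots). Before scaling, the Skil spots of the 2 arrays did not overlap. How many other repeated probes were likewise apart was not counted, so no weight is put on that. The 10 Skil spots are technical repeats of 1 labelled RNA per group, so their SD measures the array and not the mice. After scaling, the log2 difference of Skil was -1.03 ± 0.20 by the software error given for the other members. The spot-to-spot SD of a difference at that brightness was 0.067. A second Skil probe lies closer to the start of the same transcript and was 1.82-fold lower, 323 ± 34.2 against 684 ± 70.3, a difference of -0.87 ± 0.21. On the spike-in scale the 2 Skil probes differed by -1.40 and -1.24. The sequence of the second probe is given because it gave the same direction from a separate stretch of the transcript, at mm9 chr3:31016390-31016449 on the plus strand, printed 5' to 3' with no base marked.
Skil probe A_52_P597461: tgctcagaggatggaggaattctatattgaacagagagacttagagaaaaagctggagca

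**Figure D3:**
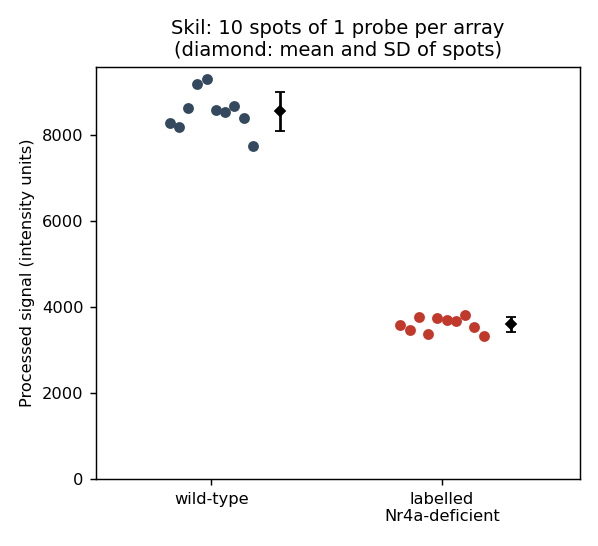
Signal of the 10 spots of the bright Skil probe on each array, in intensity units before scaling. The spots of the library labelled Nr4a-deficient lie between 3336 and 3832 and those of the wild-type library between 7756 and 9298.

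Tgif1, a homeodomain co-repressor that recruits histone deacetylases to Smad complexes, read 5208 ± 521 in the library labelled Nr4a-deficient against 10364 ± 1036 in the wild-type library. Its 1 probe (mm9 chr17:71193629-71193688, minus strand) gave a difference of -0.78 ± 0.20. On the spike-in scale it was -1.15, past 2-fold. The difference of Tgif1 minus that of Smad3, free of the scale factor, was -1.19 ± 0.29. No second probe of Tgif1 was on the array, so that difference rests on 1 spot per library.

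Promoter windows of 250 bases upstream of annotated starts were read from RefSeq (GRCm38.p6). They covered 5 members, Tgfbr1, Tgfbr2, Smad3, Ski and Tgif1, with 10 windows in all. No window was read for Tgfbr3, Smad2, Smad4, Smad7 and Skil, so nothing is said of their promoters. The windows were searched on both strands for NBRE (AAAGGTCA), the site that Nr4a receptors bind as monomers, the Smad box CAGAC, and the palindromic Smad box GTCTAGAC. NBRE was found in 1 of the 10 windows, at Tgif1, and in 439 of 32851 windows of the same length over all genes (1.34%). CAGAC was found in 5 of the 10 windows and in 42.2% of all windows, and GTCTAGAC in 0 of 10 and in 0.167%. Several of the 10 windows are alternative starts of Tgif1 or Tgfbr1, so these are shares of windows and not of members. The motifs do not overlap in the windows shown. A match describes letters and is not a binding site or a cause. The Tgif1 window with NBRE lies at GRCm38.p6 chr17:70849791-70850040 on the minus strand, and a second Tgif1 window with 2 Smad boxes at chr17:70851735-70851984, also on the minus strand. Both are printed 5' to 3' along the gene's strand, with NBRE and Smad boxes (CAGAC or its reverse, GTCTG) in capitals.
Tgif1 window with NBRE: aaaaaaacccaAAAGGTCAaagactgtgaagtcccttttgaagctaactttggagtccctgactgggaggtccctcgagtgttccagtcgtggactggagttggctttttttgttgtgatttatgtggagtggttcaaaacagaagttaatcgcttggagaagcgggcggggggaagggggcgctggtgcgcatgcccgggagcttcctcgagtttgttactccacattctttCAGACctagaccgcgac
Tgif1 window with Smad boxes: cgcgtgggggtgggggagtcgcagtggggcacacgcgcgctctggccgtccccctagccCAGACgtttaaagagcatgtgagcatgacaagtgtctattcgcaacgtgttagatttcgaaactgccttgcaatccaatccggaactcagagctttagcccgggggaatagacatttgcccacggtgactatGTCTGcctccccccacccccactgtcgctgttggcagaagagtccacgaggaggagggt

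Ski, the relative of Skil with a similar co-repressor role, read 250 ± 28.3 in the library labelled Nr4a-deficient against 369 ± 41.6 in the wild-type library at 1 dim probe (mm9 chr4:154528238-154528297, minus strand). The difference was -0.34 ± 0.23 and -0.72 on the spike-in scale. The difference of Skil minus that of Ski was -0.68 ± 0.31. The difference of Ski minus that of Tgfbr1, the lowest receptor, was -0.15 ± 0.31, within its error.

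Smad7, the inhibitory Smad that directs ubiquitin ligases to the receptor, read 4537 ± 454 in the library labelled Nr4a-deficient against 7417 ± 742 in the wild-type library. Its 1 probe lies at mm9 chr18:75555371-75555430 on the plus strand. The difference was -0.49 ± 0.20 and -0.86 on the spike-in scale. Set against the signal-carrying Smads, the difference of Smad7 minus that of Smad3 was -0.91 ± 0.29, and minus that of Smad2 it was -0.41 ± 0.29.

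Of the 17 probes, 16 were above background on both arrays, 9 of them below 0 and 7 above. Among the 5 members with several such probes, 3 had the same sign at each (Smad3, Smad4 and Skil). Tgfbr1 ranged from -0.29 to 0.11 and Tgfbr2 from -0.05 to 0.39. At the brightest probe of each gene, 7 members were below 0 and 3 above, with a median of -0.14. Over all genes 52.1% were below 0. On the spike-in scale 8 members were below 0, 2 above, and the median was -0.51.

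The genes were recomputed under 10 alternatives. Of these, 7 shifted all members alike or left them unchanged, and so could not change the order of the members. The 3 that could were quantile normalization, normexp with quantile normalization, and the mean over the probes of a gene, and the 4 inhibitors lay below the other 6 members in each of the 3. Over all 11 ways of processing, Skil ranged from -1.40 to -0.95 and Tgif1 from -1.15 to -0.72. Smad7 ranged from -0.86 to -0.42 and Ski from -0.72 to -0.30. Tgfbr3 and Smad3 stayed above 0, from 0.04 to 0.46 and from 0.04 to 0.49, and Tgfbr1 and Smad2 stayed below, from -0.56 to -0.01 and from -0.46 to -0.04. The sign of Tgfbr2 changed, with 7 values below 0 and 4 above, and Smad4 was below 0 only on the spike-in scale. Skil passed 2-fold in 7 of 11. It did not in 3 that changed the normalization, nor with the mean over its probes, which gave -0.95.

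**Figure D4:**
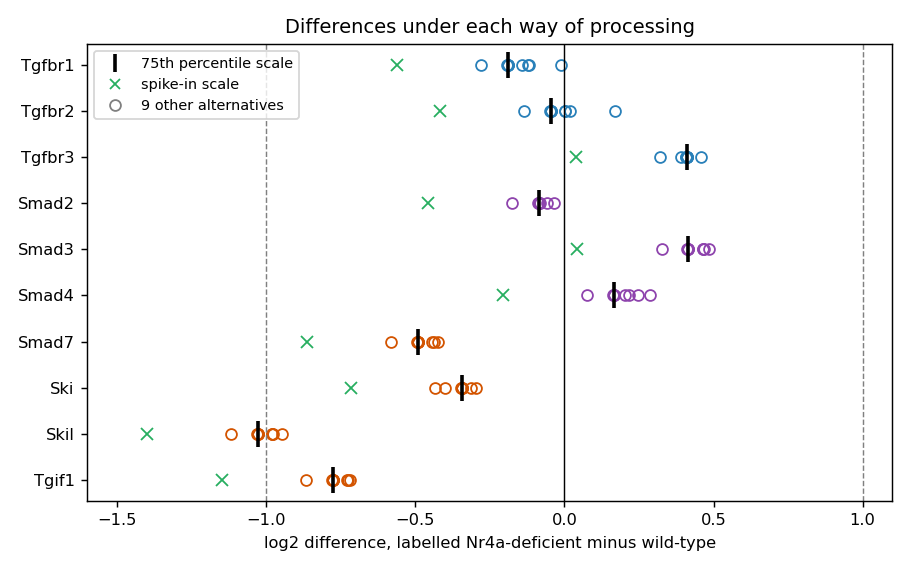
Log2 difference of each member under the 11 ways of processing, with 75th percentile scaling, the spike-in scale and the 9 others marked apart. Tgfbr2 and Smad4 lie on both sides of 0 and the other 8 members on 1 side. Only 3 of the alternatives change the gaps between members.

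The rest of the pathway was described with lists of 79 other genes, 65 of them detected on at least 1 array and 62 on both. Of those 62, 26 were below 0 and 36 above, with a median of 0.03, which was -0.35 on the spike-in scale, and past 2-fold 3 of the 65 were lower and 3 higher, next to the 4.92% and 4.70% of all detected genes. By the spike-in scale 5 were lower (Acvr1c, Acvrl1, Ldlrad4, Lrrc32 and Pmepa1) and 2 higher (Cdkn1a and Cdkn2b). Over all detected genes that scale gave 8.13% lower and 3.02% higher. Of 16 ligand and activation genes 9 were detected, with 0 past 2-fold lower and 1 higher, or 1 lower and 0 higher on the spike-in scale. Tgfb1, the main ligand in T cells, read 3810 in the library labelled Nr4a-deficient against 4445 in the wild-type library, a difference of -0.01. Tgfb3, another ligand, read 751 and 384 and was 2.27-fold higher, a log2 difference of 1.18, or 0.81 on the spike-in scale. Lrrc32 (GARP), which holds latent TGF-beta on the Treg surface, read 19682 and 41993 and was 1.84-fold lower (-0.88, or -1.25 on the spike-in scale, past 2-fold). Itgb8, part of the integrin that releases active TGF-beta, was dim at 63.9 and 96.7 and differed by -0.38. Nrros, which also tethers latent TGF-beta, differed by 0.22, and fell below 0 on the spike-in scale.

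Among 13 other receptors of the superfamily, 10 were detected, and 2 were at least 2-fold lower and 0 higher. Acvrl1, a type I receptor for BMP ligands, read 448 in the library labelled Nr4a-deficient against 1629 in the wild-type library (3.13-fold lower, -1.65, 1 probe). Acvr1c, a type I receptor for activin-like ligands, was not well above background in the library labelled Nr4a-deficient at either of its probes. It was at least 3.96-fold lower there at the brighter probe, 69.2 against 318. The type II activin receptors Acvr2a and Acvr2b were the highest of this list, at 0.76 and 0.71, and Bmpr2 was at -0.32. Of 14 other Smads and partners, 11 were detected and 0 passed 2-fold in either direction. Smad1, which carries BMP signals, differed by 0.55 at its brightest probe and by -0.61 at another, so its probes disagreed. Crebbp, a co-activator, differed by 0.28 at its brightest probe (below 0 on the spike-in scale) and by -0.21 at its other probe. Tgif2, the relative of Tgif1, differed by -0.16. Hdac1, a histone deacetylase, differed by -0.44 at its brightest probe and by -0.14 and 0.47 at the others.

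All 16 genes of Smad and receptor turnover were detected, with 1 at least 2-fold lower and 0 higher, or 2 and 0 on the spike-in scale. Ldlrad4, which limits Smad2 and Smad3 phosphorylation, read 115 in the library labelled Nr4a-deficient against 329 in the wild-type library (2.47-fold lower, -1.30, 1 probe). Pmepa1, with a related inhibitory role, read 895 and 1671 (-0.68, or -1.06 on the spike-in scale) and differed by -0.25 at its other probe. Among the genes above background on both arrays, the highest of this list were Ppp1r15a at 0.33 and Rnf165 at 0.19, each below 0 on the spike-in scale. Dab2, an adaptor protein of the receptors, read 88.7 and 19.1, was not well above background in the wild-type library, and was at least 1.40-fold higher, with that library set to its lowest signal called above background. The 10 genes of the non-Smad branch, which runs through the kinase Map3k7 and small GTPases, had 0 past 2-fold in either direction. At their brightest probes they lay between -0.13 (Map3k7, and Traf6 at the same value) and 0.20 (Cdc42), with Rhoa at 0.13, and all were below 0 on the spike-in scale. Other probes of Map3k7 differed by 0.62 and -0.18, and the other Rhoa probe by -0.048, so the probes of both genes disagreed in sign.

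Of 15 genes known to be induced by TGF-beta, members left out, 12 were detected. Of these, 1 was at least 2-fold lower and 2 higher, or 2 and 2 on the spike-in scale. Their median was 0.11, and -0.26 on the spike-in scale. The members left out of this list were Skil, Tgif1 and Smad7, at -1.03, -0.78 and -0.49, so that median does not cover them. Of the genes kept, the lower gene was Ldlrad4, which is in this list too, followed by Pmepa1. Cdkn2b, an inhibitor of the cell cycle, read 368 in the library labelled Nr4a-deficient against 147 in the wild-type library (2.91-fold higher, 1.54). Cdkn1a, another such inhibitor, read 525 and 184 at its brightest probe (3.31-fold higher, 1.73). A second Cdkn1a probe was detected in the wild-type library alone and gave a bound in the opposite direction, -2.37 on the log2 scale, so its probes disagreed. Itgae, the integrin chain CD103, read 704 and 1209 (1.48-fold lower, -0.56). Foxp3, the defining factor of Treg cells, was dim on both arrays, at 74.5 and 85.4, and differed by 0.02, or -0.35 on the spike-in scale.

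**Figure D5:**
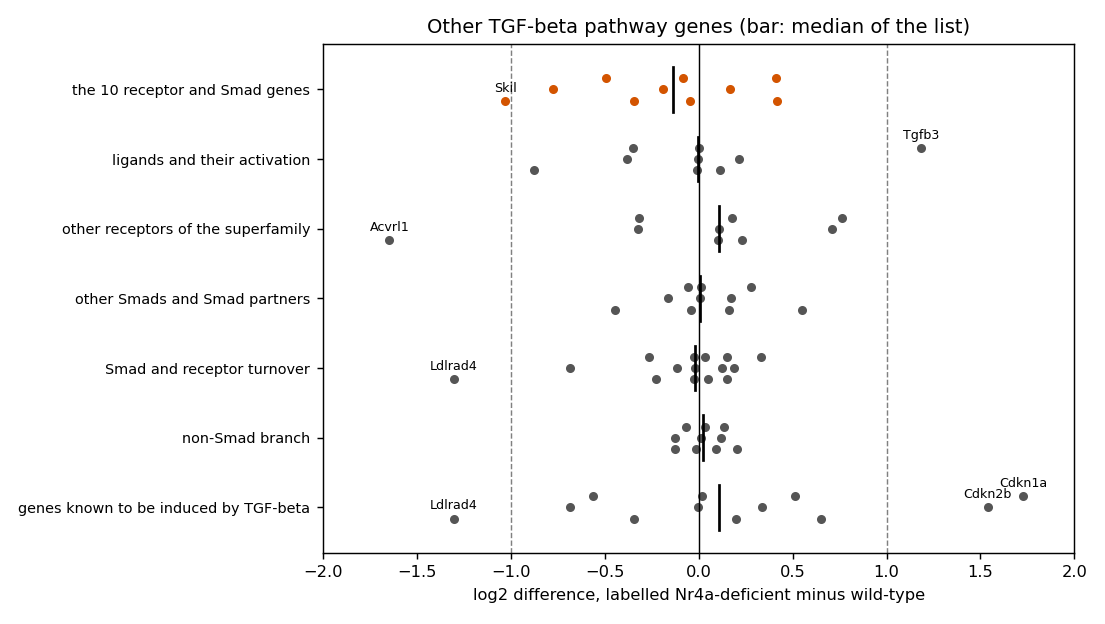
Log2 difference of every pathway gene above background on both arrays, by list, beside the members. Genes with a bound (such as Acvr1c) are not drawn. The 62 other genes have a median of 0.03 (-0.35 on the spike-in scale), next to -0.14 (-0.51) for the members.

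The libraries also differed in markers of other cells. T cell markers were detected for 6 of 7 genes, with a summed scaled level of 321 in the library labelled Nr4a-deficient against 327 in the wild-type library, and Trac was not on the array. Treg markers were detected for 7 of 7 genes and summed to 87.3 and 141, with a median difference of -0.55. CD8 and NK cell markers (7 of 8, Ncr1 not detected) summed to 2.66 and 1.61, B cell markers (8 of 10, Pax5 and Blk not detected) to 19.3 and 8.38, and plasmacytoid dendritic cell markers (9 of 9) to 112 and 78.4, with 8 of the 9 past 2-fold higher and a median difference of 4.59. Siglech, the brightest of these, differed by 0.11 and carried most of the sum. Macrophage and dendritic cell markers (10 of 11, Xcr1 not detected) summed to 26.3 and 48.8. In that list 4 were past 2-fold lower, the macrophage genes C1qa, C1qb, C1qc and Adgre1 (C1qa at -1.55 and Adgre1 at -1.29), and 3 past 2-fold higher, Itgax (2.65), Clec9a (2.50) and Lyz2 (1.03), the first 2 being dendritic cell genes. Erythroid and platelet markers (5 of 10; Klf1, Pf4, Ppbp, Itga2b and Gp9 not detected) summed to 6.01 and 21.0, with 4 past 2-fold lower, and stromal and epithelial markers (8 of 10, Pdgfra and Pdgfrb not detected) to 1.68 and 1.08. The part of these cells in the differences given here was not tested.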

How the data were processed

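The deposited scanner files hold a processed signal per spot, a linear intensity. Agilent Feature Extraction 10.7.3.1 subtracted local background and removed trends within each array, per the file headers, and both arrays shared 1 slide and 1 scan. The authors' deposited value table held the same intensity within 1% for 99.6% and 99.5% of probes (column medians 143.7 and 156.8, not centred). Outlier spots (173 and 209) were left out, signals were scaled to each array's 75th percentile and put on the log2 scale, and repeated spots were averaged with Python 3.11.15. The software's call of well above background had to hold in more than 50% of a probe's spots. Each gene was given by its brightest probe among those above background on at least 1 array. Probe names were brought up to date by RefSeq accession or symbol where they matched (27234 by accession, 3576 by symbol, 565 by synonym, 8054 kept as designed). The text names each member, the extremes of each list, and genes past 2-fold. The members, lists and naming rule were chosen with earlier results of these data known. Alternatives used limma 3.58.1 in R 4.3.3 where they needed it (normexp and quantile normalization), and the scripts were tested on simulated data. Probe positions are mm9, as the files give them. Amplification of low-input RNA can distort rare transcripts, and 1 array per group limits the precision.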

Additional observations from a re-analysis of the deposited data

How the results depend on the processing

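The median of the members was -0.14 and moved to -0.048 when the probes of a gene were averaged, to -0.23 with the array median as the scale and to -0.51 with the spike-in RNAs. Under the other 7 alternatives it lay between -0.14 and -0.09. Of the 10 members, 1 was past 2-fold, 0 were with quantile normalization, with normexp and quantile normalization, with the mean over probes or with the percentile of probes above background on both arrays, and 2 were with the spike-in scale or a 1.5-fold threshold. Of 100 single member values, 74 moved by less than their spot-to-spot error and 26 by more. Many of the 74 could not move, since some alternatives left every member at its value. A mean over probes also leaves a gene with 1 probe as it was. Of the called values 0 turned direction, but Skil was the only member past 2-fold. Among the members not called, Tgfbr2 and Smad4 changed sign in some settings. Over all 18540 detected genes, 913 were lower and 872 higher past 2-fold (48.9% of calls higher). Over the same genes the spike-in scale gave 1508 and 560 (27.1%), and normexp with quantile normalization 664 and 565. The 1.5-fold threshold gave 1607 and 1622 of them. Other settings changed the set of genes. No filter on dim probes gave 1782 and 2062 of 30069 genes, and only probes above background on both arrays 497 and 433 of 16304. No paired analysis was possible because each group held 1 array, so leaving out a replicate was not possible either. Skil excepted, each member's probes were single spots, and the dim probes of Tgfbr1, Smad3 and Ski were the least precise.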
